A study of Mus musculus with 12 samples.

Results

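Reck and 6 other genes long described as targets of the microRNA miR-21, namely Timp3, Spry1, Spry2, Pdcd4, Btg2 and Tpm1, were followed in mouse tumour cells given wild-type DICER1, either of 2 mutant forms of it, or GFP. Probes were taken by gene name: every non-control probe whose RefSeq accession maps to 1 of the 7 symbols was used, with no selection among probes on their values. The 7 genes, and the lists of genes set beside them, were themselves chosen with earlier results of these data known. Counts of called genes among them are therefore descriptions. This gave 12 of the 55681 non-control probes, 2 for Reck, 5 for Tpm1 and 1 for each of the other 5 genes, and 7 of the 24184 genes and transcripts tested. All 12 probes were well above background on all 12 arrays, so no filter on low signal removed a member. On RefSeq's GRCm38.p6 assembly the genes lie at chr4:43875521-43944806 (Reck), chr10:86300412-86349505 (Timp3), chr3:37639947-37644599 (Spry1), chr14:105891947-105896819 (Spry2), chr19:53892231-53937592 (Pdcd4), chr1:134074865-134079155 (Btg2) and chr9:67022590-67049672 (Tpm1). Where in its transcript each probe binds was not analysed here.

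DICER1, an RNase III enzyme, cuts the hairpin precursors of microRNAs, and its RNase IIIb domain makes the cut that frees the strand from the hairpin's 5′ arm. A microRNA pairs through its seed with sites mostly in the 3′ untranslated region of messenger RNAs, which lowers their translation and often their level. miR-21 is a 5′-arm microRNA that is abundant in many tumours, and the 7 genes are among the targets named most often for it. They restrain matrix proteases (Reck, Timp3), receptor tyrosine kinase signalling (Spry1, Spry2), translation (Pdcd4) or proliferation (Btg2), or build actin filaments (Tpm1).

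The RNA came from DKO172, a mouse line derived from a fallopian tumour of a female animal and known as a line with no working Dicer1 of its own, a genotype that the labels used here do not spell out. The 4 groups of 3 arrays were cells given a hygromycin-selectable plasmid for DICER1 D1709N, for DICER1 G1809R, for wild-type DICER1 (WT) or for GFP, the control. Both substitutions are tumour hotspots in the RNase IIIb domain. All cells shared the same line, 2 µg of plasmid, 84 h of hygromycin at 300 µg/ml and a harvest 108 h after transfection, so that every group is a selected pool of 1 transfected line. Nothing in the labels says that replicates were separate cultures, so the p-values measure the spread between these arrays, which may be technical, and 3 arrays a group limit the precision. RNA was measured in bulk, so that fewer cells carrying a transcript and less of it per cell cannot be told apart.

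Slide 1 held the first replicate of each group, and slide 2 the others. On slide 1, 68.1% to 82.7% of the probes were well above background, the highest share on WT replicate 1, against 49.5% to 62.6% on slide 2. Of 10 markers of oviduct and Müllerian epithelium, 4 (Krt18, Krt8, Ovgp1 and Krt7) were well above background on all arrays, while Pax8 and Foxj1 were so on 4 arrays each. Of 9 mesenchymal markers, 7 were well above background on all arrays, and of 6 smooth muscle markers 4 were. Of 5 leukocyte markers on the array, 2 were (Itgam and Cd3e), and the leukocyte-defining Ptprc was so on 5 arrays. Of 5 endothelial markers, 2 were (Kdr and Pecam1), and Cdh5 was on none. The Dicer1 probe was 0.86 ± 0.18 lower on the log2 scale in WT than in GFP cells (SE; limma adjusted p = 0.035). In replicates 1, 2 and 3 it read 0.93, 0.91 and 0.61 in D1709N cells and 1.17, 0.91 and 0.69 in G1809R cells. It read 0.53, 0.09 and 0.20 in WT cells and 1.36, 1.02 and 1.02 in GFP cells. Whether this probe also reads the plasmids' transcript was not tested.

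The sequences below show the reference mouse miR-21a precursor, not one read from these cells. They also show which microRNAs of the RefSeq table share the seed that defines these targets. The first line is the mmu-mir-21a hairpin (RefSeq, GRCm38.p6, chr11:86584067-86584158, minus strand), with both mature arms in capitals. In the lines after it, the seed, bases 2 to 8 from the 5′ end, is in capitals.
mmu-mir-21a hairpin: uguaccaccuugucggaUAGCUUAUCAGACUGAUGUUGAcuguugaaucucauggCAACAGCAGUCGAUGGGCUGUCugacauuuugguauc
mmu-miR-21a-5p: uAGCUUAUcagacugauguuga
mmu-miR-21c: uAGCUUAUcagacugguacaa
mmu-miR-21b: uAGUUUAUcagacugauauuucc
mmu-miR-21a-3p: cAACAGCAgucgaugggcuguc
Of 1679 mature mouse microRNAs in the RefSeq table, 2 carry the miR-21a-5p seed, miR-21a-5p itself and miR-21c. Mouse microRNAs outside that table were not searched, so others may share the seed. miR-21b differs from them within the seed, and the 3′-arm product miR-21a-3p has an unrelated one. The arrays measured messenger RNA and no mature microRNA. The miR-21a hairpin lies within the span of the host gene Vmp1 (chr11:86583858-86683836), an autophagy gene, whose levels were 4.74, 4.93 and 4.91 in D1709N cells, 4.81, 5.04 and 4.89 in G1809R cells, 4.57, 4.89 and 4.86 in WT cells and 4.74, 4.92 and 4.86 in GFP cells (replicates 1, 2 and 3). The Vmp1 groups overlapped, and the change with WT against GFP was -0.06 ± 0.12 (log2, SE; limma adjusted p = 0.957).

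All levels are log2 of the scanner's processed intensity, scaled to the 75th percentile over non-control spots of that array, and are given for replicates 1, 2 and 3 in that order. A level tells how bright 1 probe was on an array and is compared only with the same probe on other arrays. A change is the difference between 2 group means of such levels, and a change was called where limma's Benjamini-Hochberg adjusted p over all genes tested was under 0.05. Since arrays with the same replicate number deviated together, a second fit with the replicate number as a block was made, and its adjusted p is given where it alters a call of a member or of a gene named beside them.

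Against GFP, limma by group called 0 of the 7 genes with D1709N (background 0.0496% of all genes tested), 0 with G1809R (0.0124%) and 1, Reck, with WT (2.95%). Against WT, 0 were called with D1709N (1.66%), 0 with G1809R (1.64%) and 1, again Reck, with the mean of the mutants (3.61%). Before adjustment, 2 members had p under 0.05 with D1709N against GFP and 2 with G1809R (Reck and Btg2 in both), 1 with WT against GFP (Reck), 1 with each mutant against WT (Reck) and 3 with the mean of the mutants against WT (Reck, Timp3 and Tpm1). Over all genes tested, the share with such a p was 7.21%, 6.64% and 15.4% against GFP with D1709N, G1809R and WT, and 13.7%, 12.2% and 16.3% against WT with D1709N, G1809R and the mean of the mutants. Between G1809R and D1709N, 0 were called (0%) by either fit, and the smallest unadjusted p of a member there was 0.594 (0.269% of all genes had one under 0.05).

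With the replicate block, Btg2 was called with D1709N against GFP and with G1809R against GFP, 1 of 7 in each (background 4.25% and 3.74%), and 2 of 7, Reck and Btg2, with WT against GFP (17.8%). Against WT, Reck and Tpm1 were called with D1709N and with G1809R, 2 of 7 in each (15.5% and 12.7%), and 3 of 7, Reck, Timp3 and Tpm1, with the mean of the mutants (19.5%). Calls rose over all genes too, so that these shares are read against a far larger background than those by group.

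**Figure D1:**
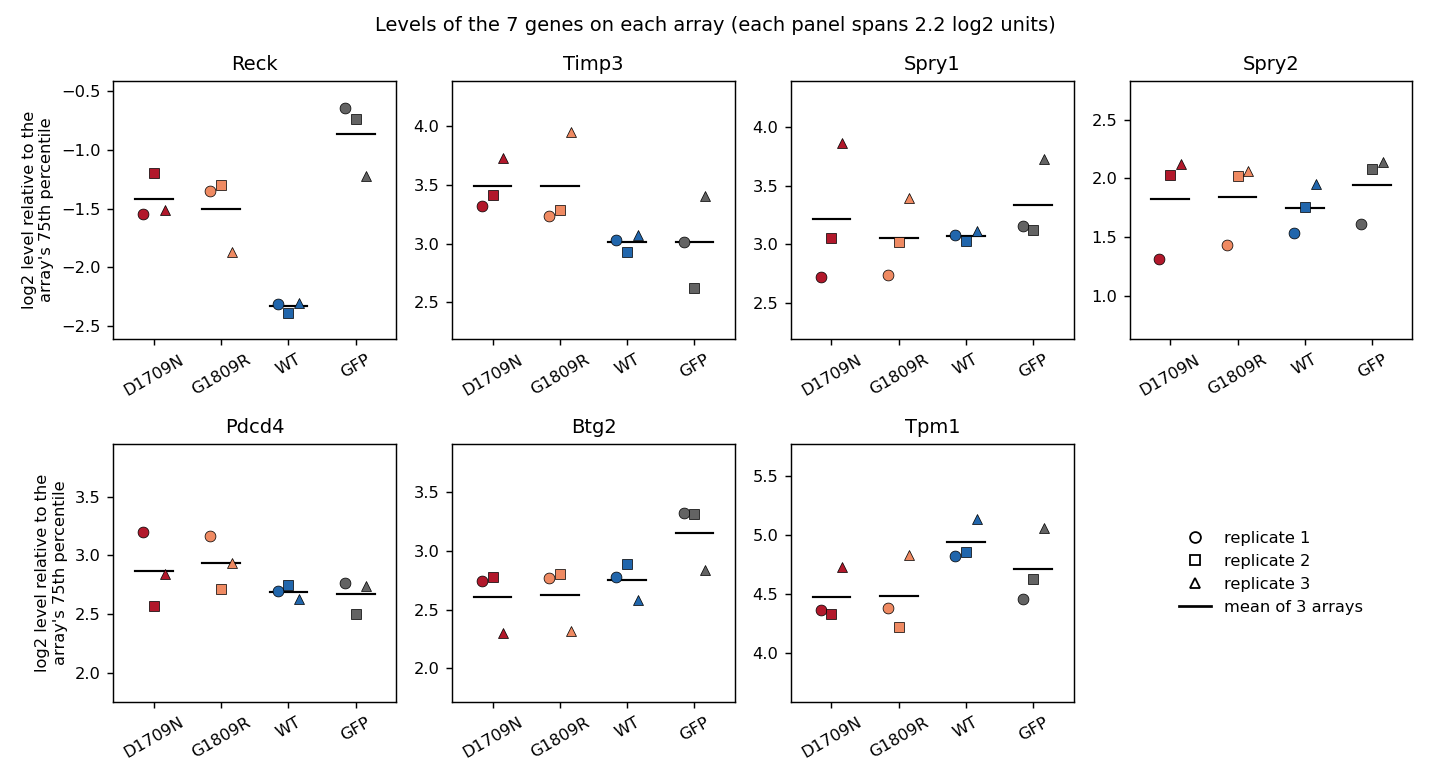
Level of each of the 7 genes on each of the 12 arrays (log2 relative to the array's 75th percentile, 1 probe a gene), by group, with the marker shape giving the replicate number and the bar the mean of 3 arrays. Reck lies at -2.38 to -2.30 in WT cells and at -1.22 or above in GFP cells, while Spry1, Spry2 and Pdcd4 have no group apart from all others.

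Reck, a membrane-anchored inhibitor of matrix metalloproteases and of ADAM10, was the member with the clearest difference. Its brighter probe, A_55_P1964832, read -1.54, -1.19 and -1.51 in D1709N cells, -1.35, -1.30 and -1.86 in G1809R cells, -2.31, -2.38 and -2.30 in WT cells and -0.64, -0.74 and -1.22 in GFP cells. Every WT array was below every other array, the D1709N and G1809R arrays were interleaved, and the lowest GFP array fell just inside the D1709N range. Group means were -1.42 ± 0.19 in D1709N, -1.50 ± 0.31 in G1809R, -2.33 ± 0.05 in WT and -0.86 ± 0.31 in GFP cells (SD, n = 3 arrays each).

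Reck was 2.77-fold lower in WT than in GFP cells, a change of -1.47 ± 0.20 (SE; limma adjusted p = 0.0066). It was lower in 3 of 3 pairs of arrays that share a number, as were 24% of all genes tested. The change was -1.67 on slide 1 and -1.36 on slide 2. Fitting the 8 arrays of slide 2 alone ended the call (limma adjusted p = 0.108), and so did fitting the 2 groups without the others. By any margin, every WT array was below every GFP array for 10.2% of all genes tested, and every mutant array was above every WT array for 6.43%, Reck among both.

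The mutants lay between. Against GFP, the Reck difference was -0.55 ± 0.20 with D1709N and -0.64 ± 0.20 with G1809R (SE; limma adjusted p = 0.536 and 0.513; with the replicate block 0.0779 and 0.0544). Reck was lower in 3 of 3 pairs with each, as were 20.3% (D1709N) and 17.9% (G1809R) of all genes tested. Against WT, Reck was 1.83-fold higher in the mean of the mutants, a change of 0.87 ± 0.17 (SE; limma adjusted p = 0.0234), with no overlap of their arrays. Leaving out single arrays ended that call in 5 of 12 fits, namely without WT replicate 1, 2 or 3, D1709N replicate 2 or G1809R replicate 2 (adjusted p up to 0.0999). Taken singly, D1709N was 0.92 ± 0.20 and G1809R 0.83 ± 0.20 above WT (SE; limma adjusted p = 0.0511 and 0.0744), both of which passed with the replicate block (0.00603 and 0.00947). The mutants differed from each other by -0.09 (G1809R minus D1709N, 95% CI -0.52 to 0.35; limma adjusted p = 1).

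The dimmer Reck probe, A_55_P1971734, read -3.92, -4.38 and -4.20 in D1709N cells, -3.69, -4.31 and -4.37 in G1809R cells, -4.03, -4.70 and -4.45 in WT cells and -3.46, -3.41 and -3.60 in GFP cells. Here all 9 arrays of the 3 DICER1 groups were below all 3 GFP arrays, and the mutant arrays overlapped the WT arrays. Over all genes tested, such a gap below GFP was seen for 5.83% with D1709N, 4.98% with G1809R and 10.2% with WT. The share of probes with all 3 gaps was not counted. The change of the dimmer probe with WT against GFP was -0.91 ± 0.22 (SE, with limma adjusted p over all probes = 0.072, and 0.00458 with the replicate block). With D1709N against GFP it was -0.68 (adjusted p = 0.514, block 0.042) and with G1809R -0.64 (0.654, block 0.054). The probes part over the mutants: the mean of the mutants against WT was 0.25 ± 0.19 on this probe (SE; limma adjusted p = 0.664, block 0.204), against 0.87 on the brighter one, though the dimmer probe had 0.67 after quantile normalization and 0.13 after normexp background correction. The higher Reck of the mutants over WT thus rests on 1 of the 2 probes, and the mean over both probes gave 0.56 (adjusted p = 0.0759). The mean signal of the dimmer probe was 67.6, 75.1, 58.1 and 119 intensity units in D1709N, G1809R, WT and GFP cells.

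**Figure D2:**
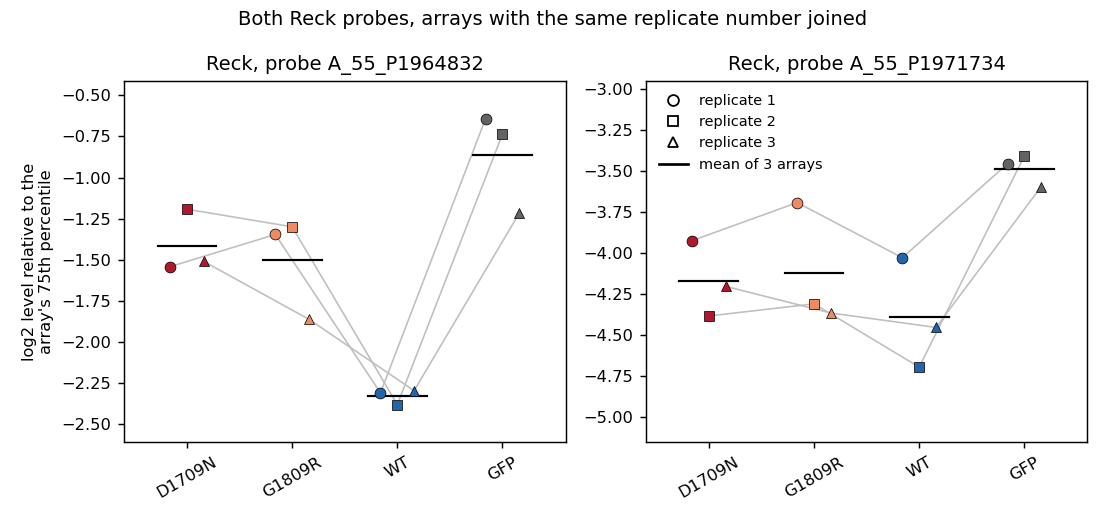
Levels of the 2 Reck probes on each array (log2 relative to the array's 75th percentile), with grey lines joining arrays of the same replicate number and bars at the mean of 3. GFP is high on both probes, whereas the gap between the mutants and WT is 0.87 on A_55_P1964832 and 0.25 on A_55_P1971734.

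Timp3, a secreted inhibitor of metalloproteases that binds the extracellular matrix, read 3.33, 3.41 and 3.73 in D1709N cells, 3.24, 3.28 and 3.95 in G1809R cells, 3.03, 2.93 and 3.07 in WT cells and 3.02, 2.62 and 3.40 in GFP cells. All mutant arrays were above all WT arrays, as for 6.43% of all genes tested, while the GFP arrays spanned the WT ones. The mean of the mutants was 0.48 ± 0.20 above WT (SE), a change that was not called by group (limma adjusted p = 0.279) and was called with the replicate block (0.0292). Against GFP both mutants had a change of 0.48 ± 0.24 (SE; limma adjusted p = 0.742 for D1709N and 0.826 for G1809R), and WT had 0.00 ± 0.24 (0.999).

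Around these inhibitors, 9 of 13 listed proteases and other inhibitors were tested. With WT against GFP, 1 was called lower (background 1.76%) and 0 higher (1.19%), with a median change of 0.02, against 0.04 over all genes. With the replicate block 2 were lower (8.6%) and 1 higher (9.18%), the added ones being the metalloproteases Mmp15 with -0.83 and Mmp9 with 0.82 (block adjusted p = 0.0144 and 0.0401). Mmp9 was dim and passed the filter on low signal only through WT, the group where it was higher. No conclusion is drawn from its call. The gene called by group was Adam10, the sheddase that Reck inhibits, with -0.63 ± 0.13 (SE; limma adjusted p = 0.0366), and in the mean of the mutants it was 0.66 ± 0.11 above WT (0.014). Of 5 tested genes of the Wnt7 receptor complex that Reck joins, 1 was called by either fit: Fzd4, a Wnt receptor, was 0.94 ± 0.15 higher in WT than in GFP cells (SE; limma adjusted p = 0.0117; background 1.19%) and 0.63 lower in the mean of the mutants than in WT (0.0262; 1.42%).

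Spry1 and Spry2 are intracellular inhibitors of receptor tyrosine kinase signalling to ERK. Spry1 read 2.72, 3.06 and 3.86 in D1709N cells, 2.74, 3.02 and 3.40 in G1809R cells, 3.08, 3.03 and 3.11 in WT cells and 3.16, 3.12 and 3.73 in GFP cells. Replicate 3 was the highest array of every group, by little in WT. WT lay just below GFP without overlap, as for 10.2% of all genes tested. Spry2 read 1.32, 2.03 and 2.12 in D1709N cells, 1.43, 2.02 and 2.06 in G1809R cells, 1.53, 1.76 and 1.95 in WT cells and 1.61, 2.08 and 2.14 in GFP cells. Replicate 1 was the lowest Spry2 array in all 4 groups, and all groups overlapped.

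Neither Sprouty gene was called in any of the 7 comparisons by either fit. With WT against GFP the change was -0.26 ± 0.29 for Spry1 (95% CI -0.91 to 0.38; limma adjusted p = 0.839) and -0.20 ± 0.26 for Spry2 (95% CI -0.77 to 0.38; 0.892), so that a fall of up to 0.91 or 0.77 lies within the intervals. Of the 5 other Sprouty and Spred genes, all tested, 0 were called by group with WT against GFP or with the mean of the mutants against WT (1 in each had an unadjusted p under 0.05, and 1 in each was called lower with the replicate block, by which 8.6% and 9.96% of all genes were). Spred1, another inhibitor of the pathway, had -0.41 with WT against GFP (adjusted p = 0.146, block 0.0196), and Spry3 had 0.45 (0.437). Spred3 had -0.70 in the mean of the mutants against WT (adjusted p = 0.0504, block 0.00294). Of 12 genes read as outputs of ERK signalling, 0 were called by group in either comparison, with 0 and 1 at an unadjusted p under 0.05 and 1 higher and 2 lower with the block (background 9.18% and 9.96%). The smallest p-values with WT against GFP were those of Fosl1, an AP-1 factor, at 0.74 ± 0.54 (limma adjusted p = 0.645, block 0.00893) and of the phosphatase Dusp4 at 0.28 ± 0.22 (0.692).

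Pdcd4, which binds eIF4A and blocks its helicase in translation, read 3.20, 2.57 and 2.84 in D1709N cells, 3.16, 2.71 and 2.94 in G1809R cells, 2.69, 2.75 and 2.62 in WT cells and 2.76, 2.50 and 2.74 in GFP cells. Replicate 1 was the highest array of both mutants, and all 4 groups overlapped. With WT against GFP the change was 0.02 ± 0.17 (SE; 95% CI -0.37 to 0.41; limma adjusted p = 0.999), and in the mean of the mutants it was 0.22 ± 0.15 above WT (95% CI -0.12 to 0.55; 0.583). Neither fit called Pdcd4 in any comparison. The 6 tested eIF4 genes had 0 calls by group in either comparison (0 with WT against GFP and 1 with the mean of the mutants against WT at an unadjusted p under 0.05), with Eif4g2 at -0.24 (adjusted p = 0.379) and Eif4g3 at 0.40 (0.428, block 0.0165) with WT against GFP. The block called 1 of the 6 higher (background 9.18%) and 1 lower (8.6%) there, the lower one being Eif4a3 with -0.33 (adjusted p = 0.701, block 0.0186), and it called the same gene higher in the mean of the mutants than in WT, with 0.23 (0.745, block 0.0363).

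Btg2, an antiproliferative protein that recruits the CCR4-NOT deadenylase to messenger RNA, read 2.74, 2.77 and 2.30 in D1709N cells, 2.77, 2.80 and 2.31 in G1809R cells, 2.78, 2.89 and 2.58 in WT cells and 3.32, 3.31 and 2.83 in GFP cells. Replicate 3 was the lowest array in every group, and within each replicate number GFP was the highest of the 4. Both mutants lay below GFP without overlap, as for 5.83% (D1709N) and 4.98% (G1809R) of all genes tested, and WT overlapped GFP by its replicate 2. Against GFP the change was -0.55 ± 0.20 with D1709N, -0.53 ± 0.20 with G1809R and -0.41 ± 0.20 with WT (SE; limma adjusted p = 0.555, 0.647 and 0.385). With the replicate block all were called (adjusted p = 0.0111, 0.0155 and 0.00881). Btg2 was lower in 3 of 3 pairs in each, as were 20.3%, 17.9% and 24% of all genes tested. Against WT, the mean of the mutants differed by -0.13 ± 0.17 (SE; limma adjusted p = 0.855).

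The other 4 tested genes of the Btg and Tob family had 0 calls by group (0 with WT against GFP and 1 with the mean of the mutants against WT at an unadjusted p under 0.05), with Btg1 at -0.14 (adjusted p = 0.768) and Btg3 at -0.13 (0.857) with WT against GFP. Btg1 was also below GFP in the mutants, with differences of -0.50 for D1709N (limma adjusted p = 0.336, block 0.0544) and -0.57 for G1809R (0.311, block 0.0414), and had -0.40 in the mean of the mutants against WT (0.101, block 0.031). These were the 2 block calls of the 4 genes in those comparisons, 1 with G1809R against GFP (background 1.98% lower) and 1 with the mean of the mutants against WT (9.96%).

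Of 7 tested CCR4-NOT genes, 2 were called lower in WT than in GFP cells (background 1.76%) and 3 with the replicate block (8.6%), the third being the scaffold Cnot1 with -0.44 (adjusted p = 0.137, block 0.0176). Those called by group are both catalytic deadenylase subunits: Cnot6 with -0.91 ± 0.14 and Cnot6l with -0.72 ± 0.14 (SE; limma adjusted p = 0.0107 and 0.0313). Both were called higher in the mean of the mutants than in WT, by 0.72 and 0.58 (0.0117 and 0.0359; background 2.18%), as were 4 of the 7 with the block (9.53%).

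**Figure D3:**
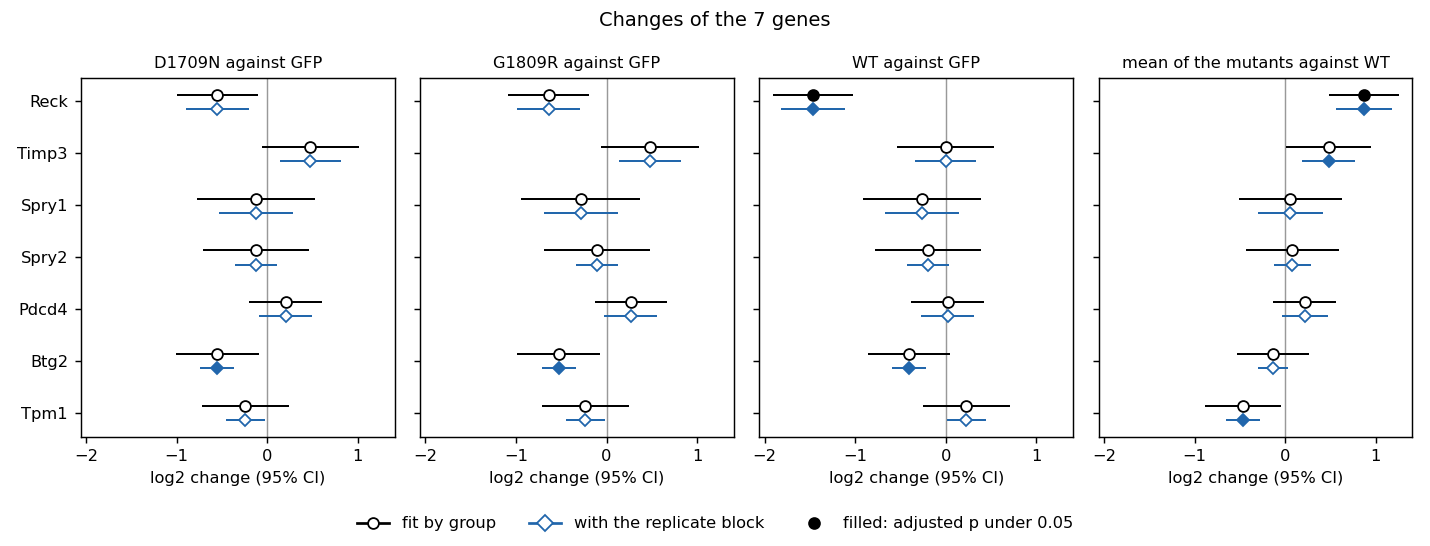
Log2 change of each of the 7 genes with its 95% confidence interval in 4 comparisons, from limma by group (circles) and with the replicate number as a block (diamonds), filled where the adjusted p over all genes was under 0.05. By group only Reck is filled, at -1.47 with WT against GFP and 0.87 with the mean of the mutants against WT, while Btg2, Timp3 and Tpm1 are filled with the block alone.

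Tpm1, a tropomyosin that stabilises actin filaments, has 5 probes. The brightest, A_55_P2032192, stands for the gene and read 4.36, 4.32 and 4.73 in D1709N cells, 4.38, 4.22 and 4.83 in G1809R cells, 4.82, 4.86 and 5.14 in WT cells and 4.46, 4.63 and 5.06 in GFP cells. Within each replicate number WT was the highest of the 4 groups, and replicate 3 was the highest array of every group. The mean of the mutants was 0.46 ± 0.18 below WT (SE; limma adjusted p = 0.23, block 0.00474), lower in 3 of 3 pairs, as were 23.6% of all genes tested. Against GFP the change was -0.24 with D1709N, -0.24 with G1809R and 0.23 with WT (adjusted p = 0.931, 1 and 0.774), none called by either fit.

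The 4 other Tpm1 probes differed in how the groups were ordered. A_55_P2078680 read 1.08, 1.03 and 1.79 in D1709N cells, 1.11, 1.12 and 1.97 in G1809R cells, 1.83, 1.92 and 2.51 in WT cells and 1.88, 2.02 and 2.63 in GFP cells, low in both mutants, with WT and GFP overlapping. A_55_P2187038 read 2.70, 2.39 and 3.18 in D1709N cells, 2.59, 2.44 and 2.67 in G1809R cells, 3.44, 3.11 and 4.05 in WT cells and 2.76, 2.72 and 3.54 in GFP cells, highest in WT within each replicate number. A_55_P2187043 read 2.16, 1.87 and 2.78 in D1709N cells, 2.40, 2.02 and 2.23 in G1809R cells, 3.15, 2.62 and 3.56 in WT cells and 2.49, 2.21 and 3.09 in GFP cells.

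On that probe too WT was the highest within each replicate number. A_55_P2187053 read 0.57, 0.62 and 0.83 in D1709N cells, 0.55, 0.51 and 0.74 in G1809R cells, 0.60, 0.69 and 0.85 in WT cells and 0.48, 0.52 and 0.74 in GFP cells, with the 4 groups overlapping.

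In the mean of the mutants against WT, the probes A_55_P2078680, A_55_P2187038 and A_55_P2187043 differed by -0.74, -0.87 and -0.87, of which none was called by group (limma adjusted p over all probes = 0.228, 0.119 and 0.137) and all with the replicate block (0.000606, 0.00298 and 0.00463). Over all probes, 2.88% were called in that comparison by group and 17.3% with the block. Taken singly, D1709N had -0.79, -0.77 and -0.84 on these probes against WT (limma adjusted p = 0.331, 0.292 and 0.272; block 0.00138, 0.0117 and 0.013), and G1809R had -0.69, -0.97 and -0.90 (0.47, 0.2 and 0.271; block 0.00219, 0.00566 and 0.0112). Again none was called by group (1.28% of all probes with D1709N and 1.21% with G1809R) and all were with the block (13.8% and 10.6%). A_55_P2187053 had -0.08 (adjusted p = 0.898, block 0.408). The probes also differed against GFP: A_55_P2078680 had -0.88 with D1709N, -0.78 with G1809R and -0.09 with WT (block adjusted p = 0.00473, 0.0102 and 0.492, with 3.43%, 2.77% and 15.8% of all probes called), whereas A_55_P2187038 had -0.25, -0.44 and 0.53 (block 0.355, 0.144 and 0.0412). Tpm1 gives many spliced transcripts, and which of them each probe reads was not analysed here.

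**Figure D4:**
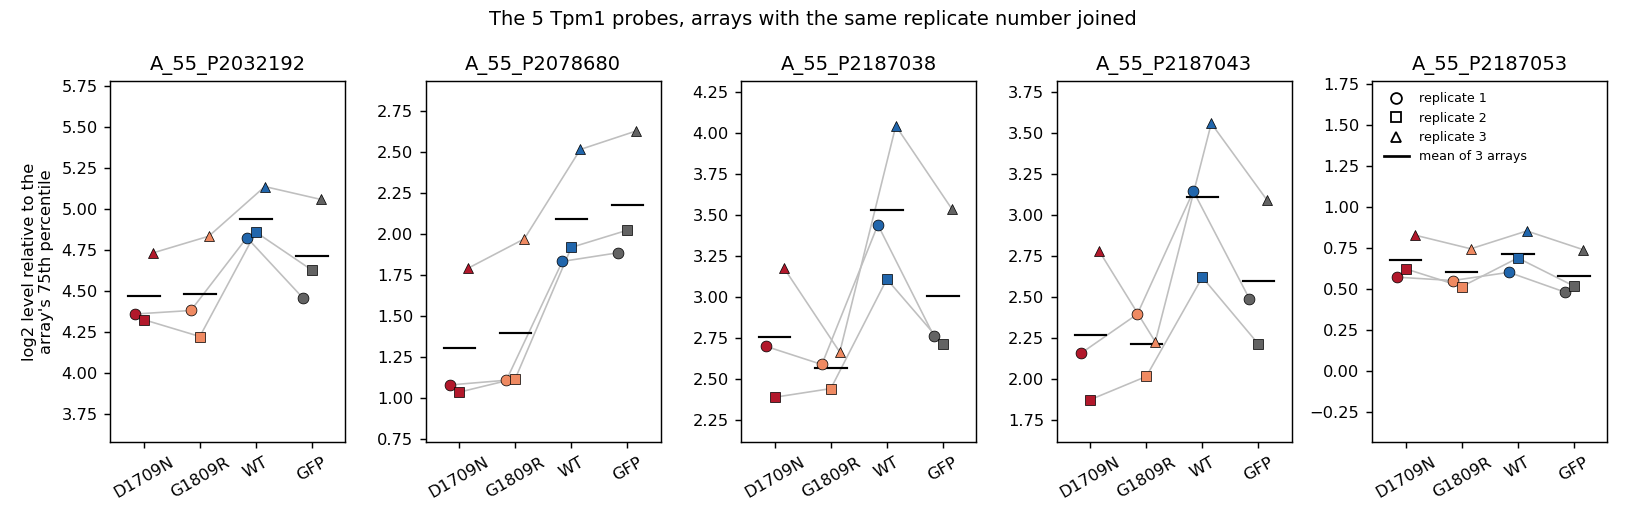
Levels of the 5 Tpm1 probes on each array (log2 relative to the array's 75th percentile), with grey lines joining arrays of the same replicate number and bars at the mean of 3 arrays. Both mutants are below WT within each replicate number on all 5 probes; their mean differs from WT by -0.46 to -0.87 on 4 of them and by -0.08 on A_55_P2187053.

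Smooth muscle markers had lower means in the mutants as Tpm1 did. All 6 of 6 (Acta2, Myh11, Cnn1, Des, Tagln and Smtn) were lower in mean than in WT, as were 12092 of all 24184 genes tested. The median change of the 6 was -1.04, with 0 called by group (4 at an unadjusted p under 0.05). With the replicate block 6 were called lower, as were 9.96% of all genes. Their summed linear level, with the array's 75th percentile as 1, was 27.6 to 130.5 in D1709N cells, 30.9 to 102 in G1809R cells, 90.02 to 198 in WT cells and 45.6 to 156 in GFP cells. Most of each sum came from Tagln, an actin-binding protein and the brightest of the 6, so the sum mainly restates this gene. Tagln read 4.66, 4.30 and 6.84 in D1709N cells, 4.78, 4.49 and 6.42 in G1809R cells, 6.19, 6.23 and 7.41 in WT cells and 5.03, 5.44 and 7.04 in GFP cells, again highest in replicate 3 of every group. The part of the smooth muscle markers in the Tpm1 result was not tested. Of the 3 other tropomyosin genes, 0 were called by group (0 with WT against GFP and 1 with the mean of the mutants against WT at an unadjusted p under 0.05), with Tpm3 at -0.21 (limma adjusted p = 0.47) and Tpm2 at 0.30 (0.629) with WT against GFP. The block called Tpm2 lower and Tpm3 higher in the mean of the mutants than in WT, with -0.38 and 0.30 (adjusted p = 0.354 and 0.161, block 0.0144 and 0.0325; background 9.96% lower and 9.53% higher).

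Beside the 7 genes, 21 of 24 other genes named as miR-21 targets were tested. With WT against GFP, 4 were called lower (background 1.76%) and 0 higher, and the median change was -0.33, against 0.04 over all genes and -0.20 over the 7 members. They were the cell cycle phosphatase Cdc25a with -1.20 ± 0.14, the deubiquitinase Yod1 with -1.14 ± 0.15, the ubiquitin ligase subunit Rmnd5a with -0.80 ± 0.10 and the TGF-β receptor Tgfbr2 with -0.69 ± 0.15 (SE; limma adjusted p = 0.00422, 0.00657, 0.00572 and 0.0438). With the replicate block 8 were lower (background 8.6%) and 0 higher. Against GFP with the mutants 0 were called by group, and with the block 5 were lower with D1709N (background 2.49%) and 3 with G1809R (1.98%). Several of them, Cdc25a among these, are described as targets of other microRNAs too.

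Cdc25a read 3.53, 3.61 and 3.81 in D1709N cells, 3.77, 3.57 and 3.8 in G1809R cells, 2.53, 2.25 and 2.60 in WT cells and 3.70, 3.48 and 3.79 in GFP cells. For this gene both mutants overlapped GFP, and all were far above WT. Its difference from GFP was -0.00 with D1709N and 0.06 with G1809R (limma adjusted p = 1 for both), where Reck had -0.55 and -0.64. Tgfbr2 likewise had 0.10 and 0.07 (1 for both). Yod1 and Rmnd5a, in contrast, lay between WT and GFP in the mutants as Reck did. Yod1 had -0.60 with D1709N and -0.55 with G1809R against GFP (adjusted p = 0.303 and 0.449, block 0.0391 and 0.0531), and Rmnd5a had -0.46 and -0.41 (0.234 and 0.36, block 0.0241 and 0.035). On both genes no mutant array overlapped a WT or a GFP array. Over all genes tested, every mutant array was above every WT array for 6.43%. Every D1709N array was below every GFP array for 5.83%, and every G1809R array for 4.98%. The share of genes with all these gaps was not counted.

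In the mean of the mutants against WT, 3 of the 21 were called higher (background 2.18%) and 0 lower, Cdc25a with 1.23, Tgfbr2 with 0.78 and Yod1 with 0.57 (adjusted p = 0.00169, 0.0129 and 0.0465), and the median was 0.26, against -0.00 over all genes and 0.08 over the 7 members. With the block 7 were higher (9.53%) and 1 lower (9.96%).

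**Figure D5:**
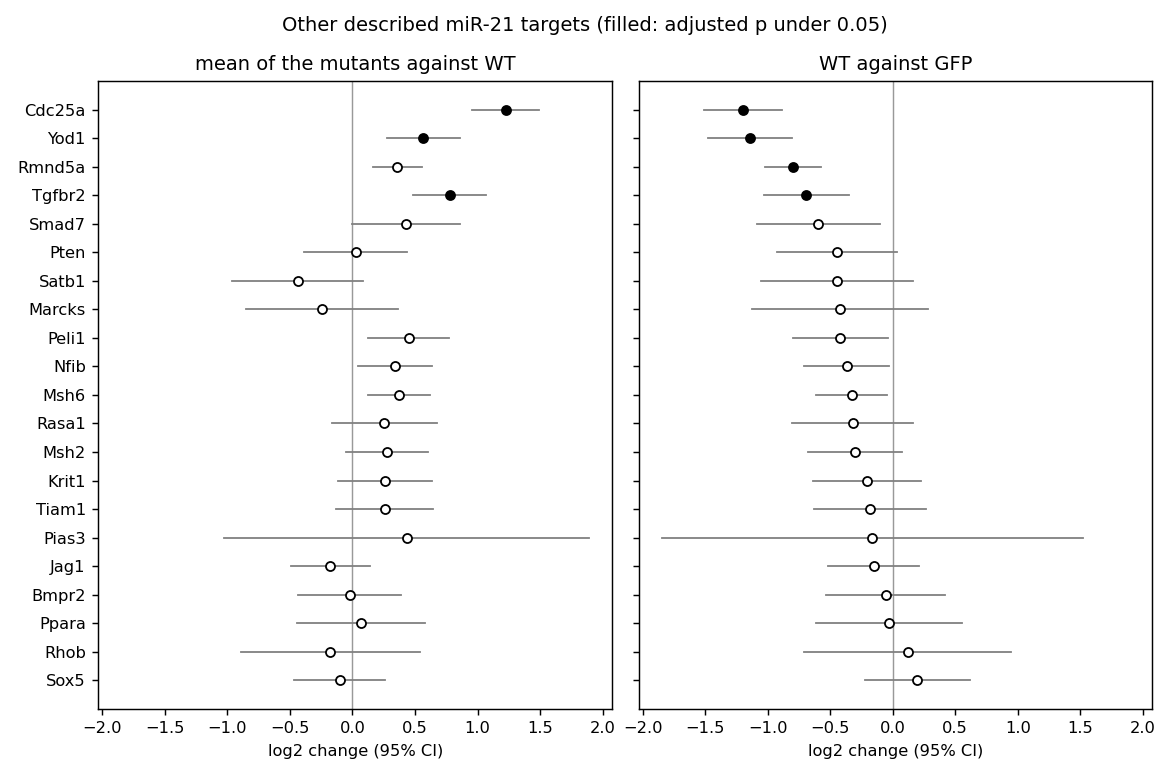
Log2 change with its 95% confidence interval (limma, by group) of the 21 other genes named as miR-21 targets, for the mean of the mutants against WT on the left and WT against GFP on the right, filled where the adjusted p over all genes was under 0.05. With WT against GFP 19 of 21 are below 0, as were 10466 of all 24184 genes tested. Of the 21, 4 are filled (background 1.76% called lower). The comparisons share the WT arrays.

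Of 7 tested genes of the silencing complex through which microRNAs act, 2 were called lower in WT than in GFP cells (background 1.76%), the GW182 proteins Tnrc6a with -1.17 ± 0.12 and Tnrc6b with -0.81 ± 0.18 (SE; limma adjusted p = 0.00211 and 0.0462). With the replicate block 4 were lower (8.6%), Ago2 and Ago1 being added with -0.70 and -0.50 (adjusted p = 0.195 and 0.204, block 0.00653 and 0.0225). Tnrc6a was 0.98 higher in the mean of the mutants than in WT (0.00195; background 2.18%), and 4 of the 7 were with the block (9.53%).

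Ordered by level, Reck was lowest in WT, then in G1809R and D1709N, whose arrays overlap, and highest in GFP, with 1 GFP array inside the D1709N range. Btg2 was lowest in D1709N, then G1809R and WT, all overlapping, and highest in GFP. Tpm1 was lowest in D1709N, then in G1809R, GFP and WT, with each neighbour overlapping the next. Timp3 was lowest in WT, then in GFP, D1709N and G1809R, again with each neighbour overlapping the next. For Spry1, Spry2 and Pdcd4 each neighbour in the order overlapped the next.

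Over the 12 arrays, the named genes whose levels were most alike to those of Reck were Kmt5c (Pearson r = 0.982), Stx3 (0.958), Lin28b (0.952), Unkl (0.95) and Fgd4 (0.949). All 5 were called lower in WT than in GFP cells, from -0.71 for Kmt5c to -2.69 for Lin28b, the RNA-binding protein that blocks let-7 maturation (limma adjusted p = 0.0107 and 0.00173). The 2 genes most alike to each other member were Uhrf1 and Pde12 for Timp3 (r = 0.91 and 0.907), Tnfsf15 and Ccn2 for Spry1 (0.888 and 0.883), Zc3h15 and Tas2r109 for Spry2 (0.966 and 0.949), Snap23 and Fmn2 for Pdcd4 (0.959 and 0.924), Zfp429 and Bmt2 for Btg2 (0.942 and 0.938), and Tagln and Prr5 for Tpm1 (0.962 and 0.957). The 12 arrays share slides, replicate numbers and groups, and the genes were picked as the highest of all named genes tested, so these values are descriptions. The 5 genes most alike to Reck were picked on the same arrays, so their lower level in WT follows in part from the pick.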

How the data were processed

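RNA of 12 samples was hybridised to 1-colour (Cy3) Agilent mouse arrays. Per the submitters' processing notes, images were read with Agilent Feature Extraction (version 11.0.1.1). Per the file headers, its output gives background-subtracted, detrended intensity and 0 or 1 flags in other columns. The deposited values, on a log2 scale, served as an alternative, with medians of 9.40 to 9.42 on the arrays. Their correlation with log2 scanner intensity was 0.995 to 1 by array, and their normalization is unknown here.

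The log2 intensity was taken relative to each array's 75th percentile of non-control spots. Spots flagged as outliers were left out and a probe's spots averaged, 287 probes having none left. The 33024 probes that passed the scanner's well-above-background flag on all 3 arrays of a group or more were kept, and the probe with the highest mean stood for its gene. A member's other probes were tested among all kept probes. Symbols came from RefSeq accessions (GRCm38.p6): 14732 of 24184 genes had one. Of 129 symbols in 16 further lists, 107 were tested. limma 3.58.1 in R 4.3.3 (with the package data.table, version 1.17.8) fitted all 12 arrays by group, with Benjamini-Hochberg adjustment, two-sided; it was first tested on simulated data. The members and lists were chosen with earlier results of these data known.

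Replicate numbers were used as a block in a second fit. Deviations from group means correlated at 0.569 to 0.844 in 18 array pairs of the same number and at -0.673 to 0.217 in 36 pairs of different numbers. Such deviations cancel out within a group, which lowers the values between different numbers in advance. Replicate 1 is also slide 1, so number and slide cannot be told apart there. Within slide 2, the values were 0.569 to 0.717 for the same number and 0.0302 to 0.217 for different numbers. Named beside the members were, from each list, up to 4 called genes by size or, with none called, up to 2 by smallest p; genes named for a call with the block only, and those set beside Cdc25a, were chosen after their values were seen. The alternatives were quantile normalization, normexp, other filters, slide or replicate as a block, slide 2 alone, only the groups compared, the deposited table, the mean over a gene's probes and leaving out each array.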

Additional observations from a re-analysis of the deposited data

How the results depend on the processing

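The lower Reck of WT against GFP kept its direction under every alternative and was called in 12 of 12 fits without 1 array (1 member called in each, change -1.64 to -1.35). It was lost, with 0 members called, in the fit of only the groups compared (-1.47, limma adjusted p = 0.0959) and of slide 2 only (-1.36, 0.108), where 3 of 24184 genes were called in each against 713 otherwise; both have fewer arrays. With the mean of the mutants against WT, 1 member was called and 0 without the filter on dim probes (0.872, adjusted p = 0.0665, with 36945 genes tested), on slide 2 only (0.874, 0.149) and with the mean over a gene's probes (0.559, 0.0759); leaving out single arrays gave 0 to 1. With D1709N against WT, 1 member (Reck) was called under quantile normalization, normexp, the filter on all 12 arrays, the slide block and the deposited table, and 0 to 1 without single arrays. With G1809R against WT, 1 (Reck) was called with the slide block. With the replicate block 1, 1 and 2 members were called against GFP with D1709N, G1809R and WT, and 2, 2 and 3 against WT with D1709N, G1809R and the mean of the mutants, and the calls it added on single probes and in the lists are given in the report or as counts there. It called 4300 genes with WT against GFP, and the slide block 2112. Of 84 changes of members' genes and probes, 29 took the other sign under some alternative, 0 of the 2 called ones among them. The values below cover the 43 member changes printed in the report, a restriction made after the values had been seen. Timp3 with WT against GFP turned to 0.0613 under quantile normalization and in the deposited table, and to -0.2 to 0.193 without single arrays. Without single arrays, the ranges were -0.0649 to 0.0677 for Pdcd4 with WT against GFP, -0.19 to 0.0921 for Reck with G1809R against D1709N, -0.303 to 0.134 for Tpm1 probe A_55_P2078680 with WT against GFP, and -0.46 to 0.0183 for Tpm1 probe A_55_P2187038 with D1709N against GFP. The causes were not tested. Normexp was run on median signals, a choice made after seeing the data.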
